A study of Mus musculus with 23 samples.

Results

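The FLAG control peaks are the regions called with the anti-FLAG M2 antibody in mouse embryonic stem cells (ESCs) that carry no FLAG tag. All 274 rows of that peak list were taken, out of 18581 peaks in the 3 lists of the series, which also hold 9350 FLAG-Zbtb11 peaks and 8957 Zbtb11 peaks. Chromatin immunoprecipitation followed by sequencing (ChIP-seq) was performed in the E14 line, a mouse ESC line, here grown without feeders. The FLAG control used 2 libraries of Zbtb11WT/WT cells with a WT Rosa26 locus and the M2 antibody. FLAG-Zbtb11 ChIP-seq used 3 libraries of Zbtb11FLAG/FLAG cells, a single clonal line with the tag on both copies of Zbtb11, and the same antibody. Zbtb11 ChIP-seq used 4 libraries of untagged Zbtb11WT/WT cells and an antibody to the protein itself. RNA sequencing (RNA-seq) comprised 3 groups of 3 libraries, all collected after 48 h. The 4OHT control was Zbtb11WT/WT with a WT Rosa26 locus, given 250 nM 4-hydroxytamoxifen (4OHT), and so has the genotype of the cells used for the FLAG control. The EtOH control was Zbtb11lox/lox with ERt2-Cre at Rosa26, given the ethanol carrier, and the Zbtb11 KO was the same Zbtb11lox/lox ERt2-Cre line given 250 nM 4OHT, which switches on the recombinase.

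An antibody ChIP in cells without its target records whatever DNA is recovered in the absence of the tagged protein, and is used to mark regions that should not be read as binding of that protein. FLAG is a short artificial peptide with no gene of its own in the mouse. Zbtb11 is a nuclear protein with zinc fingers and a BTB domain. Control regions of this kind commonly include tandem repeats, satellite DNA and the mitochondrial genome, whose copy numbers differ from those of unique nuclear DNA.

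The sequences of the FLAG control peaks fell into a few kinds, and the leading ones are shown first because the overlaps and gene lists described later divide along them. A search of all words of 7 bases in the central 300 bases of the 267 peaks on placed nuclear chromosomes put GGACAGC first, with 119 peaks (44.6%) against 7.74% of FLAG-Zbtb11 peaks that share no base with a FLAG control peak. CAGCACC was found in 107 of these peaks (40.1%) against 9.35%. In this order and 2 bases apart on the same strand, the words are the left and right arms of the RE1 element, known as the DNA sequence recognised by REST, a zinc finger repressor of neuronal genes in cells that are not neurons. Binding of REST was not measured in the series, and a match to these letters is a description of the sequence only. The 9 promoters of protein-coding genes that held an exact copy of both arms are shown with 7 bases on each side (mm9, 5′ to 3′ on the strand of the pair, both arms in capitals). The stretches lie at chr11:35612553-35612582 (+), chr19:42330448-42330477 (+), chr2:28771704-28771733 (+), chr2:152858124-152858153 (+), chr2:157739005-157739034 (-), chr2:179839274-179839303 (+), chr7:6362979-6363008 (+), chr8:87471216-87471245 (-) and chrX:71114842-71114871 (-), in the order of the lines.
Fbll1: gtccagtCAGCACCagGGACAGCtacctca
Golga7b: cccgcgtCAGCACCgtGGACAGCacggacc
Barhl1: gaggcctCAGCACCgcGGACAGCgacagcg
Xkr7: ccgccgtCAGCACCaaGGACAGCgacatag
Vstm2l: acagtttCAGCACCacGGACAGCtcctctt
Hrh3: gcgcgggCAGCACCacGGACAGCgccgcgt
Gm16532: cgtggttCAGCACCaaGGACAGCgtgcctt
Rtbdn: acgaggcCAGCACCttGGACAGCttttccg
L1cam: aggcctcCAGCACCacGGACAGCagaccgt

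The other large kind was a simple tandem repeat with a period of 5 bases. Tracts were counted where a unit of 5 bases was repeated without error over at least 25 bases, and each unit is named by its alphabetically first rotation on either strand. For AGGAT and AACCT, which are among the 3 most frequent units, the longest tract is shown with 20 bases before it and its first 60 bases in capitals (mm9, plus strand). The AGGAT tract was intergenic at chr9:115357822-115357901 and the AACCT tract lay in the body of St8sia1 at chr6:142886232-142886311.
intergenic, chromosome 9: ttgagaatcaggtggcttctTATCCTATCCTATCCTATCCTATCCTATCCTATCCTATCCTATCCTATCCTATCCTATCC
St8sia1: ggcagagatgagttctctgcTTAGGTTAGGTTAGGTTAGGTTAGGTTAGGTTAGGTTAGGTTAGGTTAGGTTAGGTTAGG

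Another, smaller kind was a repeat that carried the arms. In 15 intergenic peaks, each near-identical to another of them (at least 85% identity over at least 100 bases), the arms recurred 9 bases apart. The central 150 bases of the widest of them are shown on the minus strand at chr17:39244206-39244355, with exact arms in capitals and the cut end of another at the start.
repeat family: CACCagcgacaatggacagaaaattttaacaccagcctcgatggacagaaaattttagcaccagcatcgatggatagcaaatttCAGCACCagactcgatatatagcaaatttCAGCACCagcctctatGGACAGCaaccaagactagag

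The central 100 bases of 3 wide peaks are shown for comparison. The first is the widest peak in the FLAG-Zbtb11 list alone. It was intergenic at chr15:47409289-47409388 with Csmd3 as the nearest gene, and held an AGGAT tract of 40 bases outside the stretch shown. The second, in neither list and the widest of all, lay in the mitochondrial genome at chrM:3267-3366. The last line is the widest of 5 peaks with an A- and T-rich repeat whose letters resemble mouse satellite DNA. Each was near-identical to another of them, and the stretch shown lay at chr2:98506879-98506978 by Gm10800. No repeat annotation was used here, so these peaks are called satellite-like (mm9, plus strand, no letters marked).
Csmd3: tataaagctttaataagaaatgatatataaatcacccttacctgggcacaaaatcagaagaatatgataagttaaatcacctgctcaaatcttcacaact
mitochondrial genome: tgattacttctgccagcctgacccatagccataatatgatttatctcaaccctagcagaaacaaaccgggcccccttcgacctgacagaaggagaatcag
satellite-like: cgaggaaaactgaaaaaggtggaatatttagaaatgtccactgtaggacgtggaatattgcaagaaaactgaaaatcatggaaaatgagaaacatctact

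FLAG control peaks were narrow. Their width ran from 221 to 3026 bases with a median of 392 (quartiles 331.5 and 513.5), against medians of 1089 bases for FLAG-Zbtb11 peaks and 1104 for Zbtb11 peaks. Together they covered 133.305 kb, against 11356.45 kb for the FLAG-Zbtb11 list. Chromosome 7 held the most peaks (27), then chromosome 2 (25) and chromosomes 4 and 11 (23 each), and none lay on Y. The list gives positions only, without peak heights or read counts, so the depth behind each peak is unknown and a stricter cut could not be made.

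The first question was how many FLAG control peaks coincide with the regions attributed to Zbtb11. Of the 274 peaks, 219 (79.9%, 95% Wilson interval 74.8 to 84.2%) met a FLAG-Zbtb11 peak over 1 base or more and 149 (54.4%, 48.5 to 60.2%) met a Zbtb11 peak. Every FLAG control peak in the Zbtb11 list was also in the FLAG-Zbtb11 list, so that 149 overlapped both lists, 70 overlapped FLAG-Zbtb11 alone, none overlapped Zbtb11 alone, and 55 (20.1%, 15.8 to 25.2%) overlapped neither. The split of 70 against 0 gave p = 1.69e-21 by an exact two-sided McNemar test over the peaks. Where at least 50% of both peaks had to be shared, the counts were 158 and 119, with 96 in neither list and 59 against 20 in 1 list alone (exact McNemar p = 1.30e-05). Peaks are not replicates of a condition, and all 3 lists come from cells of the E14 line, so these tests compare the lists as deposited. The tests also count each peak as independent, but 41 of the 70 held a period 5 tract. Of all 89 peaks with such a tract, 55 were near-identical to another, so the p-values may be too small.

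The shared regions lay near the middle of the FLAG control peaks. The centres were a median of 61 bases apart for FLAG-Zbtb11 peaks and 71.5 for Zbtb11 peaks. A FLAG-Zbtb11 peak covered 182 of the control peaks whole, and a Zbtb11 peak covered 100. The overlapping peaks of the other lists were themselves narrower than the rest, with median widths of 676 against 1101 bases for FLAG-Zbtb11 and 654 against 1110 for Zbtb11. From the other side, 2.34% of FLAG-Zbtb11 peaks and 1.66% of Zbtb11 peaks held a FLAG control peak. None of the 7500 consensus peaks that the authors deposited overlapped one, as the authors had taken such regions out of that set, but 21 FLAG control peaks had a consensus peak within 5000 bases.

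The kind of sequence divided the peaks by overlap, as the plot of kinds shows. A pair of arms 2 bases apart, with at most 2 mismatches over the 14 letters, lay in the central 300 bases of 89 of the 273 peaks present in the reference genome (32.6%, 27.3 to 38.4%), exact in 23. It was found in 78 of the 149 peaks that overlapped both lists (52.3%), in 8 of the 70 that overlapped FLAG-Zbtb11 alone (11.4%) and in 3 of the 54 in neither list (5.56%). The background was 1.34% of FLAG-Zbtb11 peaks and 1.15% of Zbtb11 peaks without a FLAG control peak, and 0.779% of 22339 promoters of protein-coding genes of the same length. A tract of period 5 showed the opposite pattern. It was present in 14 of the peaks in both lists (9.40%), 40 of those in FLAG-Zbtb11 alone (57.1%) and 33 of those in neither (61.1%), against 0.570% and 0.193% of the FLAG-Zbtb11 and Zbtb11 peaks without a FLAG control peak and 0.376% of promoters. These kinds were defined from the same peaks, so the counts are given as a description without a test.

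**Figure D1:**
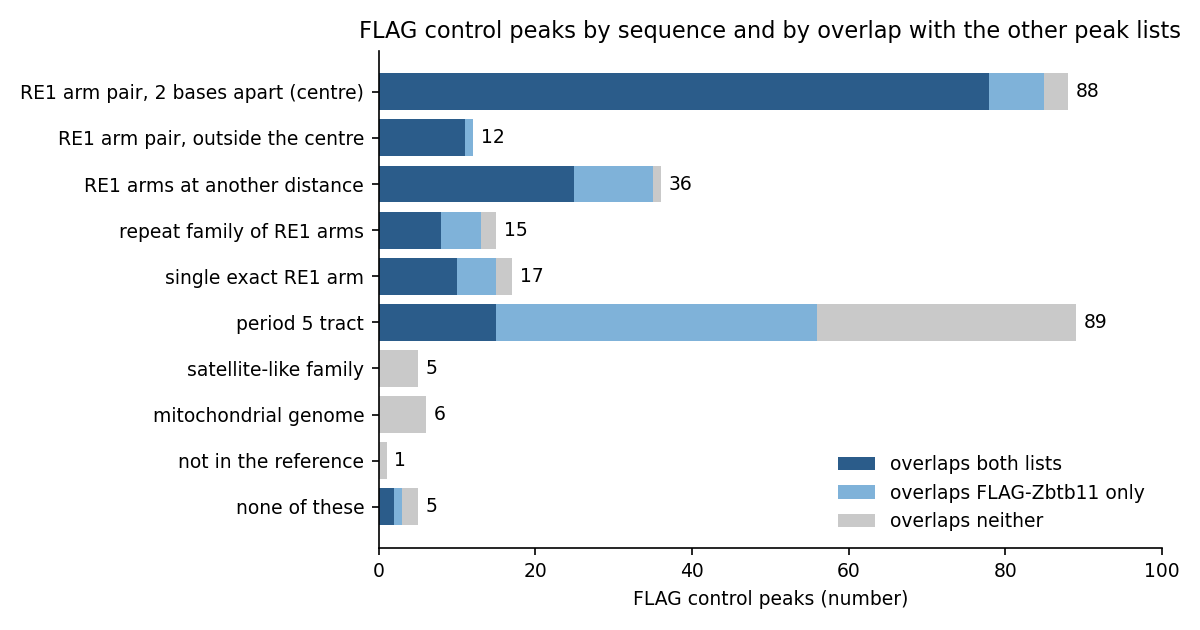
Number of FLAG control peaks (horizontal axis) of each sequence kind, split by whether they share at least 1 base with a peak of both other lists, of the FLAG-Zbtb11 list alone or of neither; the total stands beside each bar. Of 88 peaks with a central RE1 arm pair, 78 overlapped both lists, whereas 74 of 89 peaks with a period 5 tract did not.

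Each peak was then assigned to 1 kind. Of the 274, 88 held a central RE1 arm pair 2 bases apart, 12 held such a pair outside the centre, 36 held both RE1 arms at another distance of up to 20 bases (at most 1 mismatch in each), and 15 belonged to the repeat family with RE1 arms. These 151 peaks (55.1%) overlapped both lists in 122 cases, FLAG-Zbtb11 alone in 23 and neither in 6. A further 17 held a single exact RE1 arm, with 10 in both lists. These looser kinds have a higher background. In central windows, arms only at distances other than 2 were found in 21.6% of FLAG control peaks. The share was 6.78% in FLAG-Zbtb11 peaks without a FLAG control peak and 5.01% in promoters. The single words GGACAGC and CAGCACC were found in 7.74% and 9.35% of those FLAG-Zbtb11 peaks. The 89 peaks with a period 5 tract counted 15 in both lists, 41 in FLAG-Zbtb11 alone and 33 in neither. The 5 satellite-like peaks, the 6 mitochondrial peaks and 1 peak on an unplaced sequence absent from the reference were all in neither list. By these definitions, the looser ones included, 5 peaks held none of these features. Among them were 1 in the body of Clstn1, 1 in the body of Abcd3 and 1 nearest to Pou4f1. No peak held both a pair with 2 bases between the arms and a period 5 tract.

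The RE1 arm pair sat close to the peak centre. Over whole peaks 101 held it (37.0%), a median of 57 bases from the centre, and in 48 it lay within 50 bases of the centre. The distance between the arms was not free. With at most 1 mismatch in each arm, 74 of 273 central windows (27.1%) held the arms 2 bases apart, 21 (7.69%) held them 9 apart, and 11 each (4.03%) held them 1 or 8 apart. Each remaining distance up to 20 bases was seen in 2.56% of windows or fewer. Among FLAG-Zbtb11 peaks without a FLAG control peak, distances of 2 and 9 were seen in 0.964% and 0.252%, and among promoters in 0.555% and 0.282%. All 15 members of the repeat family contributed to the distance of 9. Grb10, Mir7b and 2210008F06Rik were among the promoters with arms 8 apart, and Neurod4, Stx1a, Bai3 and Cyb5r4 among those with arms 9 apart.

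**Figure D2:**
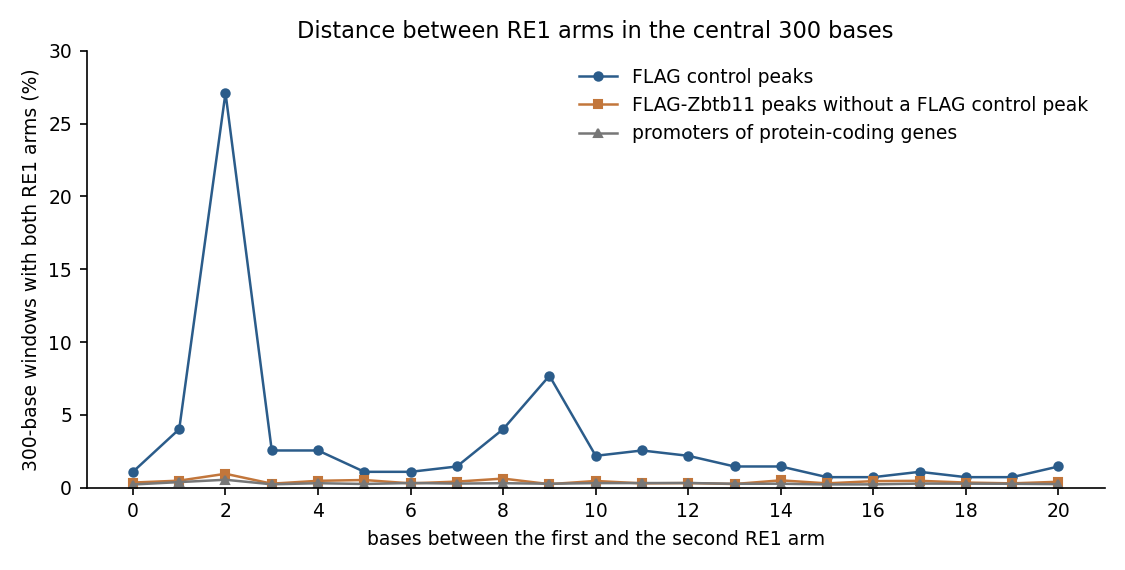
Share of 300-base windows (vertical axis, %) that hold the first and then the second RE1 arm on the same strand, each with at most 1 mismatch, by the number of bases between them (horizontal axis), for FLAG control peaks, FLAG-Zbtb11 peaks without one, and promoters of protein-coding genes. FLAG control peaks show a high point of 27.1% at 2 bases and a lower one of 7.69% at 9, while both other sets stay below 1% at every distance.

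Seen from the genome, the peaks took up a small part of the RE1 arm pairs but most copies of some tandem repeats. The placed nuclear chromosomes held 290 exact pairs, of which 35 (12.1%, 8.81 to 16.3%) lay in a FLAG control peak. Of the 58 exact pairs inside a FLAG-Zbtb11 or Zbtb11 peak, 34 were also in a FLAG control peak. With 1 mismatch 83 of 2141 pairs (3.88%) lay in a FLAG control peak, and with 2 mismatches 83 of 25030 (0.332%). Of 31 loci with at least 50 bases of perfect AGGAT tract, 26 held a FLAG control peak (83.9%, 67.4 to 92.9%), and of 32 loci with 25 to 49 bases, 9 did (28.1%). Of 19 AACCT loci of any length, 11 held one (57.9%). AAAGG was far more common in the genome, and 42 of its 3237 loci held a FLAG control peak (1.30%): 15 of 486 with 100 bases or more, 27 of 1898 with 50 to 99, and 0 of 853 with fewer. None of 17253 AAAAC loci, the unit of this period with the most loci, held one.

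**Figure D3:**
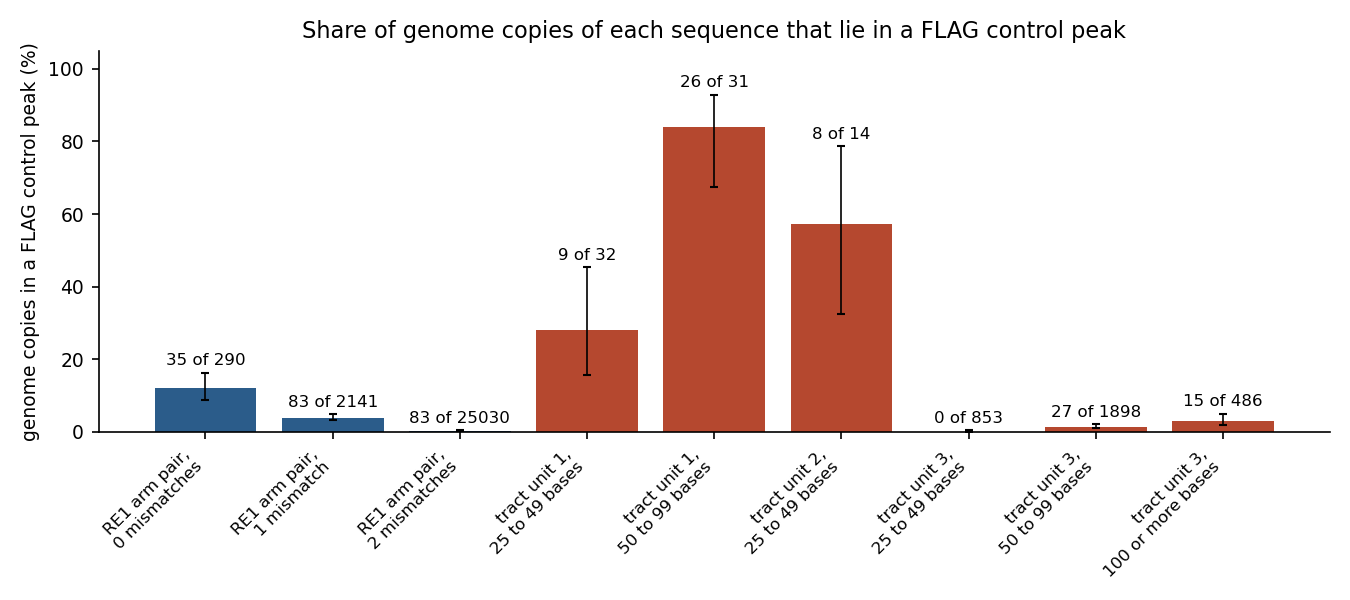
Share of the copies in the placed nuclear genome that lie in a FLAG control peak (vertical axis, %), with 95% Wilson intervals and counts above the bars, for the RE1 arm pair by its number of mismatches and for loci of 3 tract units by their summed length. Unit 1 is AGGAT, unit 2 AACCT and unit 3 AAAGG; bins with fewer than 10 loci are left out, and AGGAT loci of 50 to 99 bases reach 83.9%.

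Among the 89 peaks with a tract, the longest tract of the unit was AAAGG in 41, AGGAT in 30 and AACCT in 10, and 6 other units accounted for the rest. Tracts ran from 25 to 140 bases with a median of 60. AAAGG peaks overlapped neither list in 22 of 41 cases and both lists in 2, and AGGAT peaks overlapped neither in 4 of 30 and both in 9. In 55 of the 89, the peak was near-identical to another over at least 100 bases, and the largest such family had 40 members. For the repeat family with RE1 arms, the widest member had 30 copies of at least 250 bases and 85% identity in the genome. Of these, 11 held a FLAG control peak, 10 a FLAG-Zbtb11 peak and 7 a Zbtb11 peak. With a minimum of 150 bases there were 133 copies, of which 12 held a FLAG control peak, 11 a FLAG-Zbtb11 peak and 7 a Zbtb11 peak. Only uniquely aligned reads were used by the authors, and how alignment of repeats bears on these counts was not tested.

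In base composition the FLAG control peaks stood below the other lists. The median GC share of the central 300 bases was 48.3%, with 52.3% in peaks of both lists, 44.7% in those of FLAG-Zbtb11 alone and 40% in those of neither. It was 56.3% in FLAG-Zbtb11 peaks and 56.7% in Zbtb11 peaks without a FLAG control peak, and 55.3% in promoters. The observed to expected ratio of CpG had a median of 0.238, against 0.543 in FLAG-Zbtb11 peaks without a FLAG control peak. CpG island criteria (500 bases, over 55% GC, ratio over 0.65) were met at 20 peaks (7.33%), all of which overlapped both lists, against 46.7% of FLAG-Zbtb11 peaks without one and 48.2% of promoters. The word CCGGAAG, a core of sites for ETS family factors, was found on either strand in 3 FLAG control peaks (1.099%), against 18.2% of FLAG-Zbtb11 peaks without one and 10.8% of promoters.

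FLAG control peaks were annotated as promoter (2000 bases before to 500 after the start of any transcript), then gene body, then intergenic. Promoters held 54 of 274 (19.7%, 15.4 to 24.8%), gene bodies 79 (28.8%) and intergenic DNA 140 (51.1%), and 1 could not be annotated. The promoter share was 35.7 percentage points below that of FLAG-Zbtb11 peaks without a FLAG control peak (5058 of 9131, 55.4%; Fisher's exact test, adjusted p = 1.73e-32). It was 36.4 points below that of the corresponding Zbtb11 peaks (4941 of 8808, 56.1%; adjusted p = 2.06e-33). Promoters make up 4.94% of the nuclear chromosomes, gene bodies 36.8% and intergenic DNA 58.3%, and the 267 peaks on placed nuclear chromosomes had 17.98%, 29.6% and 52.4%. Among the 79 gene body peaks, 65 lay within introns and 14 touched an exon. Intergenic peaks lay 0.665 to 736 kb from the nearest start, with a median of 27.7 kb.

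**Figure D4:**
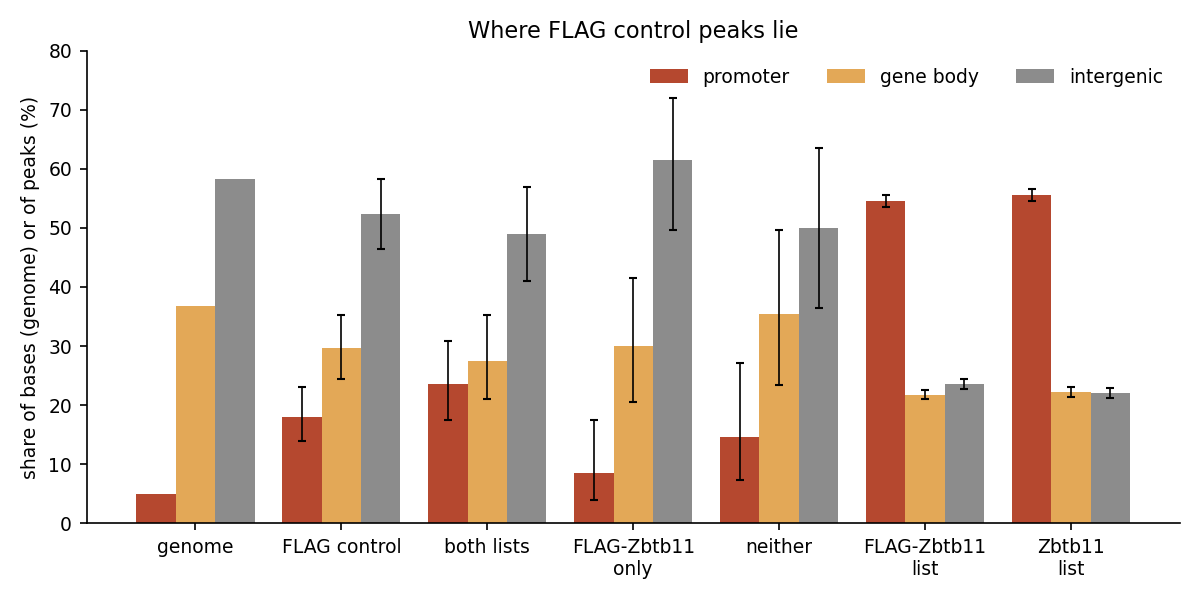
Share of nuclear chromosome bases (genome) or of peaks (vertical axis, %) in promoters, gene bodies and intergenic DNA, with 95% Wilson intervals, for FLAG control peaks on placed nuclear chromosomes, for the same peaks by overlap class, and for both other lists. The promoter bars of FLAG control peaks lie between 8.57% and 23.5%, below the 54.6% and 55.6% of the other lists.

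The annotation differed less within the FLAG control peaks. Promoters held 35 of the 149 peaks that overlapped a Zbtb11 peak (23.5%) and 19 of the 125 others (15.2%), a difference of 8.29 points that did not pass Fisher's exact test (adjusted p = 0.0950). All 6 mitochondrial peaks are counted as promoter peaks of mitochondrial genes and lie among the others. Without them and the unplaced peak, the shares were 23.5% and 11.0% (13 of 118, Fisher's exact test, adjusted p = 0.00995). With promoters of 1000 bases on each side and all peaks kept, the difference was 9.89 points (Fisher's exact test, adjusted p = 0.0444). This comparison thus depends on how the mitochondrial genome is counted and on the promoter window. On placed nuclear chromosomes the promoter share was 8.57% for peaks of FLAG-Zbtb11 alone and 14.6% for those of neither. Of the 48 nuclear promoter peaks, 35 were of the RE1 arm kinds, 3 held a single RE1 arm, 7 a period 5 tract and 3 a satellite-like sequence. Their centres lay a median of 332 bases from the nearest start, 31 of them within 500 bases, with 25 before the start and 23 after it.

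Several regions held more than 1 peak or very wide ones. The mitochondrial genome held 6 peaks that covered 58.2% of its 16299 bases, of 1584, 3026, 1872, 1043, 1639 and 373 bases, and neither other list had any peak there. The last of them is listed as ending 51 bases past the end of the molecule. A group of 3 peaks at chr2:98502361-98507546, in neither other list, lay at Gm10801 and Gm10800, predicted genes with satellite-like sequence. Another group of 3 at chr14:65165690-65204513 was intergenic, and all 3 overlapped a FLAG-Zbtb11 peak and 1 a Zbtb11 peak. Among the widest nuclear peaks were the Gm10800 peak (1235 bases), a peak in the body of C230014O12Rik at chr2:33945855-33947058 (1204 bases), a peak at the promoter of Celsr3, a cadherin of neuronal wiring, at chr9:108728386-108729582 (1197 bases), an intergenic peak near Igsf21 at chr4:139814623-139815724 (1102 bases), and a peak in the body of Celf4, which encodes an RNA-binding protein of neurons (1078 bases). All of these nuclear peaks other than that at Gm10800 overlapped both lists.

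Nuclear genes with a FLAG control peak in the promoter were 52, of which 45 were protein-coding. Among those that encode proteins known from neurons were the neuropeptide Sst, the transcription factors Neurod4, Scrt1 and Barhl1, the channel subunits Cacng2 and Cacng3, the glycine receptor subunit Glra1, the histamine receptor Hrh3, the adhesion protein L1cam, the synaptic fusion protein Stx1a and the splicing factor Srrm4. These were picked after the genes were seen. The same 52 also held Lin28a, of pluripotent cells, the histone methyltransferase Suv420h2 and the growth factor receptor adaptor Grb10. No list of neuronal genes was set up, so no count is given and no excess of them was measured. None of the 52 was a histone, cytosolic ribosomal protein, mitochondrial ribosome, complex I or Zfp gene. These families hold 70, 243, 80, 43 and 376 annotated genes in that order, so their absence among 52 genes is no result about the peaks. Mir7b was the only gene of a small RNA.

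Before the RNA levels, the cell type was checked. All 10 ESC markers, Pou5f1, Nanog and Sox2 among them, exceeded 10 CPM, the reads of a gene scaled by those of its library, in all 9 libraries, and their summed level was 4536 to 5820 CPM. Mesoderm and endoderm markers summed to 4.47 to 10.2 CPM with Foxa2, Sox17 and T under 1 CPM in every library, the 2 neural markers found in the annotation (of 3) to 37.6 to 49.7 CPM, and fibroblast markers to 15.6 to 27.2 CPM with Postn under 1 CPM. Reads assigned to genes numbered 14301457 to 23876604 per library, 7.0003 to 10.5% of them on mitochondrial genes.

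RNA levels were given as CPM per kb of exon and as the percentile among the 27367 genes with a count, using the mean of the 4OHT control. Genes with a FLAG control peak in the promoter had a median percentile of 54.99 over the 64 with a count, a value set by the mixture of mitochondrial genes (median 99.3 over 16) and nuclear genes (45.2 over 48). The 44 nuclear protein-coding genes with a count had a median of 52.3, against 62.7 for all protein-coding genes with a count and 78.0 for those with a promoter Zbtb11 peak and no FLAG control peak. Protein-coding genes whose promoter peak was of an RE1 arm kind had a median of 41.3 over 32 genes. No test was made, since genes are not replicates. In bulk RNA, a low level in all cells and a higher level in a few cells cannot be told apart.

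The highest levels at promoter peaks were those of mitochondrial genes. The libraries were made from RNA depleted of ribosomal RNA, so the levels of mt-Rnr1 and mt-Rnr2 are of what remained after depletion. In the 4OHT control the 16S ribosomal RNA mt-Rnr2 stood at 33529 ± 4896 CPM per kb (SD, n = 3), the 12S ribosomal RNA mt-Rnr1 at 25077 ± 6761 and the cytochrome c oxidase subunit mt-Co1 at 3622 ± 540, followed by mt-Nd1, mt-Cytb, mt-Nd2, mt-Nd5, mt-Nd6 (all of the respiratory chain) and the transfer RNA gene mt-Tp, at 1801 down to 129 CPM per kb. Genes with 2 or more promoter peaks were all mitochondrial: mt-Cytb, mt-Nd6 and mt-Te with 3 each, and mt-Nd1, mt-Tp, mt-Tl1 and mt-Tt with 2 each. Promoter windows of this size cover much of so small a genome, so one peak falls in the promoters of several genes.

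The highest nuclear level was that of Lin28a, an RNA-binding protein of pluripotent cells. Its level was 67.6, 86.0 and 111 CPM per kb in the 4OHT control, 65.1, 95.1 and 109.7 in the Zbtb11 KO, and 64.1, 100.04 and 100.2 under ethanol. The ranges of the 3 groups overlapped. Its peak was centred 1977 bases before the nearest start, with an RE1 arm pair of 1 mismatch, and overlapped both lists. Suv420h2, a histone methyltransferase, had 31.4, 25.5 and 19.97 CPM per kb in the 4OHT control and 26.5, 19.0 and 19.0 in the EtOH control. At the other end, Sst had no count in the 4OHT or EtOH control and 0.0818 CPM per kb in 1 of the 3 Zbtb11 KO libraries. Neurod4 stood at 0.0209, 0.0133 and 0.0388 CPM per kb in the 4OHT control, and Scrt1 at 0.0697, 0.0445 and 0.0972. Such levels are at or near the limit of these libraries, and groups could not be separated there.

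The next comparison asked whether genes at FLAG control peaks changed after loss of Zbtb11. Zbtb11's own transcript was not analysed here. With edgeR's quasi-likelihood test over 14346 genes, 129 were called between Zbtb11 KO and EtOH control at an adjusted p under 0.05 (0.899%, with 0.0558% higher and 0.843% lower), and none of the 38 tested genes with a promoter FLAG control peak, 29 of them nuclear, was among them. At an unadjusted p under 0.05 there were 2, and DESeq2 called none of the 38, against 1.25% of all genes. The lowest adjusted p was 0.354, for mt-Rnr2, with 26379, 26202 and 23224 CPM per kb in the Zbtb11 KO against 34188, 31423 and 35922 in the EtOH control. Its 3 KO values lay below all 3 EtOH values, a description only, since mt-Rnr2 was picked as the lowest of the 38. How often other genes separate in this way was not counted. The fitted log2 difference was -0.46 ± 0.12 (SE). The share of reads on mitochondrial genes, mt-Rnr2 among them, was 8.15, 8.21 and 7.0003% in the Zbtb11 KO. In the EtOH control it was higher, at 9.54, 8.65 and 10.06%. Whether mt-Rnr2 differed beyond this share was not tested. With the replicate number as a block, 2.25% of all genes were called and mt-Rnr2 was the only one of the 38 (adjusted p = 0.0139). The body or promoter of 92 tested genes held a FLAG control peak; none was called without the block. With it 2 were, mt-Rnr2 and 1110051M20Rik (log2 difference without the block -0.70, adjusted p = 0.000769 with it).

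The 2 controls were compared as well. Between 4OHT control and EtOH control, 583 genes (4.06%) were called, and these groups differ in genotype at Zbtb11 and Rosa26 as well as in treatment, which cannot be told apart. Of the 38 tested genes with a promoter FLAG control peak, 5 (13.2%) were called, all higher in the 4OHT control: Xkr7, Mapk8ip2, Grb10, Celsr3 and L1cam. All 5 are nuclear (5 of 29, 17.2%). The peaks of all 5 overlapped both other lists and were of RE1 arm kinds, as were most tested nuclear promoter genes, with 20 of 29 in both lists and 19 of 29 of RE1 arm kinds. Xkr7 passed the filter on low counts only through the 3 libraries of the 4OHT control, where it is high, and is therefore no support for the count or its direction. With a filter of more than 5 CPM, which leaves Xkr7 out, 4 of 31 were called (12.9%), all higher, against 5.48% of all genes. With no filter 5 of 64 were called (7.81%), 4 higher and 1 lower, against 1.61%. Over all genes 2.06% were called higher and 2.01% lower.

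The values of these 5 genes are given as a description, since the genes were picked for this difference. Xkr7, which encodes a membrane protein of the XK family, stood at 0.825, 0.625 and 0.607 CPM per kb in the 4OHT control and at 0.137, 0.154 and 0.215 in the EtOH control, a log2 difference of 1.98 ± 0.26 (SE; edgeR adjusted p = 0.00548). These values rest on 32, 38 and 38 reads against 7, 10 and 13. As Xkr7 met the filter only through the 4OHT control, its difference and p-value are no support for a change. Mapk8ip2, a scaffold of the JNK pathway, had 5.31, 4.66 and 3.27 against 2.27, 1.79 and 1.70, a log2 difference of 1.19 ± 0.18 (edgeR adjusted p = 0.00951). Grb10, an imprinted adaptor of growth factor receptors, had 26.4, 17.2 and 21.9 against 12.0, 10.1 and 10.7, a log2 difference of 0.99 ± 0.14 (edgeR adjusted p = 0.00751). For Celsr3 the values were 1.92, 2.60 and 2.01 against 1.03, 1.27 and 1.27, a log2 difference of 0.86 ± 0.16 (edgeR adjusted p = 0.0189). For L1cam they were 1.06, 1.27 and 1.13 against 0.541, 0.713 and 0.749, a log2 difference of 0.77 ± 0.17 (edgeR adjusted p = 0.0411).

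The Zbtb11 KO shares its genotype before recombination with the EtOH control, and its values for these genes follow. Xkr7 had 0.199, 0.235 and 0.238 CPM per kb, Mapk8ip2 2.50, 2.01 and 2.23, Grb10 11.9, 9.90 and 10.1, Celsr3 1.197, 1.32 and 1.35, and L1cam 0.883, 0.860 and 0.735. A level below that of the 4OHT control is no separate result, since the genes were picked for being high there. Set against the EtOH library of the same replicate number, the KO library was higher in all 3 pairs for Xkr7, Mapk8ip2 and Celsr3, lower in all 3 for Grb10 and higher in 2 of 3 for L1cam, and none of the 5 was called in that comparison, with or without the block. The calls between the controls depended on the libraries used. Without replicate 2 or without replicate 3 of each group none of the tested promoter genes was called, when 0.00707% and 0.0777% of all genes were. Without replicate 1, 6 of 35 were called (17.14%), against 17.09% of all genes. The log2 differences changed little over all alternatives, from 0.90 to 1.08 for Grb10, 1.095 to 1.29 for Mapk8ip2, 0.76 to 0.97 for Celsr3 and 0.71 to 0.88 for L1cam. With the replicate number as a block 16 of the 38 were called, 11 higher and 5 lower, against 33.6% of all genes. The 16 include Xkr7, which is no support for this count.

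**Figure D5:**
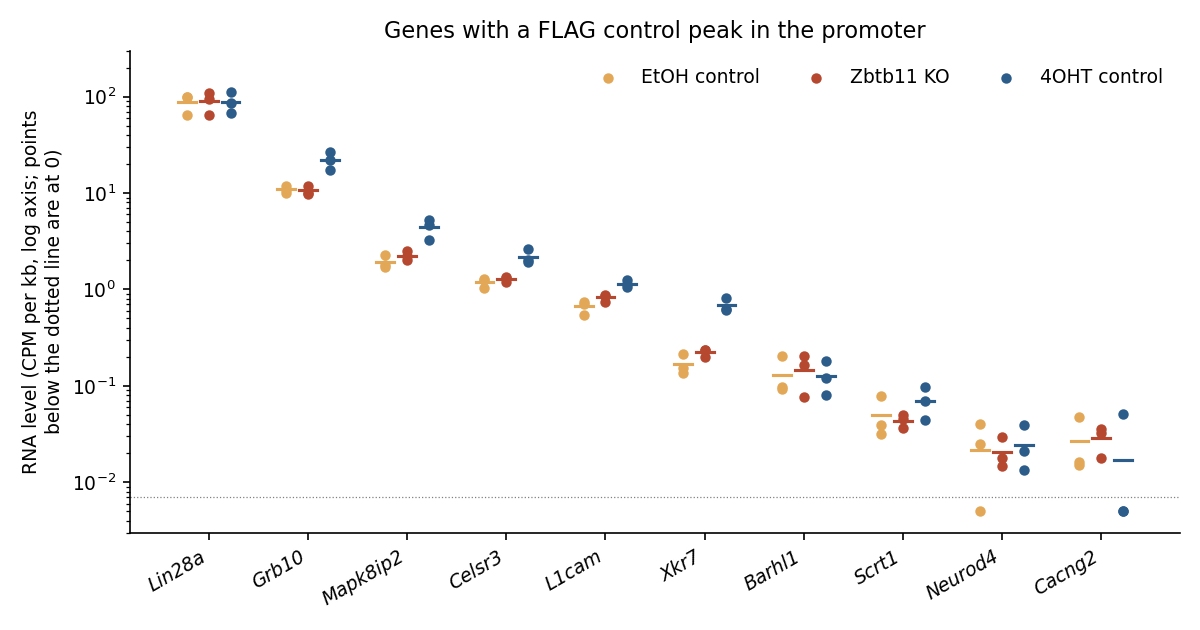
RNA level (vertical axis, CPM per kb, log scale) of 10 genes with a FLAG control peak in the promoter, in each of the 3 libraries of the EtOH control, Zbtb11 KO and 4OHT control; dots are libraries, short lines are group means, and dots below the dotted line are at 0. Grb10, Mapk8ip2, Celsr3, L1cam and Xkr7 were picked because they were called higher in the 4OHT control, so their height there is no separate result. Lin28a, Barhl1, Scrt1, Neurod4 and Cacng2 overlap between groups. The 10 genes were picked for display and do not stand for all promoter genes.

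Genes with a FLAG control peak in the body added 3 calls between the controls. Celf4 was higher in the 4OHT control, with 2.33, 2.78 and 2.24 CPM per kb against 1.51, 1.34 and 1.25 (log2 difference 0.83 ± 0.14 SE, edgeR adjusted p = 0.0143). St8sia1, a ganglioside sialyltransferase whose body holds the AACCT tract shown above, was lower, with 2.47, 2.47 and 2.30 against 5.04, 4.77 and 4.17 (log2 difference -0.96 ± 0.09 SE, edgeR adjusted p = 0.000898). Tead1, a transcription factor of the Hippo pathway, was lower as well, with 9.58, 10.4 and 11.2 against 14.8, 14.3 and 13.6 (log2 difference -0.46 ± 0.08 SE, edgeR adjusted p = 0.0180). In total 8 of 92 tested genes with a peak in the promoter or body were called (8.70%), against 4.06% of all genes. The 8 include Xkr7, which is no support for this count either. With a filter of more than 5 CPM, which leaves Xkr7 out, 7 of 72 were called (9.72%), against 5.48% of all genes. None of the genes with a peak in the promoter or body was called without replicate 2 or without replicate 3, when 0.00707% and 0.0777% of all genes were. Without replicate 1, 16 of 89 were called (17.98%), against 17.09% of all genes. With the replicate number as a block 38 of the 92 were called (28 higher and 10 lower, against 33.6% of all genes). With only the 2 controls in the fit 4 of 91 were called (4.40%), against 1.22% of all genes. Celf4 (edgeR adjusted p = 0.0620) and Tead1 (edgeR adjusted p = 0.0745) were not among the 4. Both the 38 and the 4 include Xkr7, which is no support for these counts.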

How the data were processed

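ChIP-seq peaks and RNA-seq reads from mouse E14 ESCs were analysed (23 samples, 9 of them RNA-seq). Single reads were aligned to mm9 by the authors with Bowtie 1.1.2, keeping unique hits, and duplicates were removed. Peaks were called with MACS2 within an irreproducible discovery rate procedure that combines replicates, and blacklisted regions were removed. The peak lists hold mm9 positions only. The authors' consensus table holds read coverage per peak as a normalised signal, used here only for positions and for neighbours of FLAG control peaks. RNA-seq tables are raw counts per gene, which the authors made with STAR and HTSeq. Between 26.2 and 32.4% of reads were not assigned to genes and stayed out of all totals.

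Peaks were annotated with GENCODE vM1 on NCBIM37 (mm9), with Python 3.11.15, pandas 2.3.3, numpy 2.4.6 and scipy 1.17.1. Tandem tracts were scanned without a repeat annotation, and near-identical peaks were found with blastn 2.17.0 (at least 85% identity over 100 bases). Wilson intervals cover counting error only. Shares were compared by two-sided Fisher's exact tests, adjusted by Benjamini-Hochberg over 3 tests, and overlaps by exact McNemar tests. Counts were fitted with edgeR 4.0.16 (quasi-likelihood, TMM, all 9 libraries in 3 groups, more than 1 CPM in at least 3 libraries, Benjamini-Hochberg threshold 0.05 over all genes) in R 4.3.3, with DESeq2 1.42.0 as an alternative. The study calls the 3 libraries of a group biological replicates, without naming separate cultures, so p-values measure the spread between these libraries. RNA was depleted of ribosomal RNA before library preparation. On simulated counts for Zbtb11 KO against EtOH control (14184 genes), 160 of 200 changed genes were recovered, with 66.0% at a log2 change of 1 and 93.2% at a log2 change of 2. Libraries with the same replicate number deviated together from their group means (r = 0.43 to 0.82), with replicate 1 apart from the others, while libraries numbered 2 and 3 also correlated across numbers (r up to 0.53). Every same-number correlation was over 0.1, so the numbers were taken to pair the libraries. For numbers 2 and 3 this rule does not settle the pairing, since some correlations across these numbers were as high. The main fit did not use the pairing, so its SEs and p-values leave it out. Blocked values are given where they change a count.

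The FLAG control peaks, gene lists and sequence kinds were chosen with earlier results of these data known, and the kinds were defined from the peaks themselves. Named by rule were the 10 promoter genes with the highest level, every promoter gene called between Zbtb11 KO and EtOH control, genes with 2 or more promoter peaks, the 10 widest peaks and groups of 3 or more peaks with less than 100000 bases between neighbours. One of the widest peaks and the sequence of one tract are not reported here. The other genes named, including those called between the controls and those shown for their sequence, were chosen after their values were seen.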

Additional observations from a re-analysis of the deposited data

How the results depend on the processing

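Of the main results under their alternatives, 47 values kept direction and side of the threshold or, where no test applied, stayed within 1.5 times (counts) or within their error (shares and levels), and 18 did not. Of the 18, 16 were counts, shares or levels, which were not scored for direction. The other 2 were differences that passed the threshold under the alternative only. Settings that treat mitochondrial peaks or genes separately were chosen after seeing the data. Asking for 50% of both peaks raised the peaks in neither list from 55 to 96, lowered those in the FLAG-Zbtb11 list from 219 to 158 and lowered the excess over the Zbtb11 list from 70 to 39 (exact McNemar p = 1.30e-05). Promoters of 5000 bases on each side held 35.4% of FLAG control peaks. The promoter difference between peaks with and without a Zbtb11 peak rose to 9.89 points with 1000 bases on each side (adjusted p = 0.0444) and to 12.5 points on placed nuclear chromosomes (adjusted p = 0.00995), while the other 3 alternatives gave adjusted p of 0.113 to 0.311. CpG island criteria of 200 bases were met at 14.7%. The median RNA percentile of 54.99 became 50.1 in the EtOH control, 51.9 with gene bodies, 44.8 for nearest starts, 44.7 over 1 CPM, 45.2 for nuclear genes and 52.3 for nuclear protein-coding genes. The causes were not tested.

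With the replicate number as a block, calls among promoter genes were 1 for the Zbtb11 KO and 16 between the controls, against 0 and 5. Over all genes 2.25% and 33.6% were called with the block. Calls between the controls were 3 with only those groups in the fit (8.11%, against 1.22% of all genes) and 3 at a threshold of 0.01 (7.89%, against 0.934%). With gene bodies they were 8 (8.70%, against 4.06%). Xkr7, which met the filter only through the 4OHT control, is among the calls in each of these counts. It is also among the 16 with the block, and is no support for any of them. Without replicate 1 they were 6 of 35 (17.14%, against 17.09%), and without replicate 2 or 3 they were 0. For the Zbtb11 KO leaving out any replicate number gave 0, when 0.0919 to 1.52% of all genes were called. Xkr7 did not pass the filter with a replicate left out or at 5 CPM. The lists hold no peak scores, so a stricter peak threshold was not run, and the genome given has no repeat marks, so a repeat share was not run. The lists do not give the read depth behind each peak.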
